A study of Mus musculus with 16 samples.

Results

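Fc gamma receptors are the cell-surface proteins with which leukocytes bind the constant region of IgG. The genes described here are Fcgr1, Fcgr3, Fcgr4 and Fcgr2b, which encode the receptors of the mouse, and Fcer1g, which encodes the signaling chain that the activating receptors share. They were chosen as a gene family by name, are 5 of 24495 gene symbols in the UMI tables, and each had 1 row of its own among 25127 rows.

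The genes were counted in 16 single-cell RNA libraries from tumors and spleens of mice bearing MC38, a colon tumor line derived from C57BL/6 mice and implanted under the skin. The hosts, on a C57BL/6 background, were Aire+/+ or Aire-/- littermates, 8 weeks old when bought. Aire drives the display of tissue antigens in the thymus through which developing T cells become tolerant to self. Mice of each genotype received an antibody that blocks PD-1 (anti-PD1) or a rat IgG2a isotype control, and tissues were taken on day 19. Live cells were sorted for CD45, which marks all leukocytes, or for CD8, and cells of several mice were pooled, so that each combination of tissue, sort, genotype and treatment is 1 library with no repeat. The mutation is carried by the whole animal, and Aire itself gave 0 to 6 UMIs per library, too few to check the genotype labels.

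Fcgr1, Fcgr3 and Fcgr4 encode activating receptors that need the Fcer1g chain, whose ITAM motif recruits Syk when IgG complexes cross-link the receptor. Fcgr2b encodes the inhibitory receptor, whose ITIM motif recruits the phosphatase SHIP, encoded by Inpp5d, and it is the classical Fc gamma receptor of B cells. In tumors these receptors are known for phagocytosis of antibody-coated cells by macrophages and for antibody-dependent killing by NK cells, which carry the Fcgr3 product, and Fcer1g also serves other receptors of myeloid and NK cells.

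After removal of barcodes with few genes or much mitochondrial RNA, 37453 of 37609 barcodes were kept. Values are given for Aire+/+ mice under isotype and then under anti-PD1, and after them for Aire-/- mice in the same way. In that order the tumor CD45+ libraries held 2930, 2208, 1856 and 2075 cells, with medians of 11892, 11858.5, 12251.5 and 9889 UMIs per cell. The splenic CD45+ libraries held 2095, 2088, 2023 and 2393 cells at 4549, 4413.5, 4733 and 4502 UMIs, so splenic cells were read less deeply in each of the 4 conditions. The CD8+ libraries held 2684, 2221, 1858 and 2212 tumor cells and 2898, 2944, 2339 and 2629 splenic cells. Between any of the 120 pairs of libraries at most 18 barcodes were shared, with a median of 7. 

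Cells were placed in 5 classes by UMIs of marker genes that did not include the family. Tumor macrophages, which held at least 30 UMIs of a list of 7 macrophage genes, numbered 1054, 726, 469 and 156. Tumor monocytes numbered 673, 449, 461 and 402 and splenic monocytes 183, 124, 115 and 66. NK cells numbered 108, 129, 160 and 279 in tumor and 86, 49, 59 and 56 in spleen, and splenic B cells 1374, 1405, 1328 and 1686. CD8 T cells of the CD8+ sort numbered 2472, 2107, 1761 and 2138 in tumor and 2750, 2760, 2250 and 2475 in spleen. Spleens gave 1 to 3 macrophages and tumors 1 to 4 B cells per CD45+ library, too few for values.

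The marker sums of the classes follow in part from their definition and are given as a description. All 7 macrophage genes were found in tumor macrophages, where they summed to 12918, 13878, 11998 and 10253 UMIs per 1000000 UMIs of the cells (CPM), with C1qb the most abundant, against 209.6, 215, 173 and 173 CPM in tumor monocytes. The monocyte list summed to 13214, 15812, 16893 and 18994 CPM in tumor monocytes and to 4061, 4469.9, 5112 and 5738 CPM in macrophages, so the boundary between these classes is gradual. A further 243, 187, 123 and 50 tumor cells held 10 to 29 UMIs of the macrophage list and belonged to neither class. The NK list was below 1 CPM in macrophages of each of the 4 libraries and at 1292 to 1448 CPM in tumor NK cells.

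Among the activating receptors, Fcgr1 encodes the high-affinity IgG receptor. In tumor macrophages it stood at 864, 871, 1039.8 and 801 CPM, and in tumor monocytes at 969, 918, 908 and 629.5 CPM. In splenic monocytes it stood at 103, 91.1, 81.7 and 67.7 CPM. The ranges of the tumor classes overlapped, and every splenic monocyte value lay below every tumor myeloid value. NK cells held 1, 1, 1 and 19 Fcgr1 UMIs in tumor and 0 in spleen, and CD8 T cells of the tumor CD8+ sort held 0.438 to 1.19 CPM.

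Fcgr3 encodes a low-affinity activating receptor. Its levels were 693, 654, 766 and 711 CPM in tumor macrophages and 739, 697, 768 and 729 CPM in tumor monocytes, and they overlapped. Splenic monocytes held 358, 416, 391 and 449 CPM, below each of the tumor myeloid sums. NK cells came next at 32.6, 45.2, 51.9 and 48.7 CPM in tumor and 92.2, 86.2, 61.9 and 75.5 CPM in spleen. Splenic B cells and CD8 T cells of either sort and tissue lay below 4 CPM with the exception of the CD45+ sort of the Aire-/- isotype tumor at 10.3 CPM, so for Fcgr3 the order ran from tumor myeloid cells through splenic monocytes and splenic NK cells to tumor NK cells.

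Fcgr4 encodes an activating receptor of intermediate affinity. It was at 282, 385, 512 and 552 CPM in tumor macrophages, 225, 222, 279 and 271 CPM in tumor monocytes and 111, 143, 118 and 185 CPM in splenic monocytes. The lowest macrophage value, that of the Aire+/+ isotype library, lay just above the highest monocyte value, and splenic monocytes were lower again. In NK cells Fcgr4 gave 0, 0, 2 and 3 UMIs in tumor and 0 in spleen, which for the 86, 49, 59 and 56 splenic cells limits only the share of cells with a UMI.

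Fcgr2b, the inhibitory receptor, was at 972, 986, 959.8 and 852 CPM in tumor macrophages and at 672, 583, 535 and 419.9 CPM in tumor monocytes, which did not overlap. Splenic monocytes held 195, 226, 204 and 211 CPM. Splenic B cells held 113, 113, 104 and 119.8 CPM, below splenic monocytes and above all NK sums. NK cells of the spleen held 20.2, 36.3, 48.9 and 18.9 CPM, and those of the tumor 0.593, 0.587, 3.60 and 1.84 CPM. In CD8 T cells of the CD8+ sort the gene was near 1 CPM, at 1.53, 1.57, 1.90 and 1.25 CPM in tumor.

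Fcer1g, the shared chain, was at 5424, 5426, 5810.04 and 5119.7 CPM in tumor macrophages, 4673, 4278, 4399.98 and 4091 CPM in tumor monocytes and 3437, 3414, 3688 and 3674 CPM in splenic monocytes. NK cells held 2665, 2621, 2919 and 2682 CPM in tumor and 3142, 3072, 3107 and 3659.6 CPM in spleen. These 5 groups were each separate from the next except splenic monocytes and splenic NK cells, which overlapped. CD8 T cells of the tumor held 51.3, 75.1, 78.9 and 109 CPM in the CD8+ sort, and those of the spleen 3.68, 6.47, 3.88 and 5.23 CPM. Splenic B cells held 2.26 to 7.04 CPM.

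**Figure D1:**
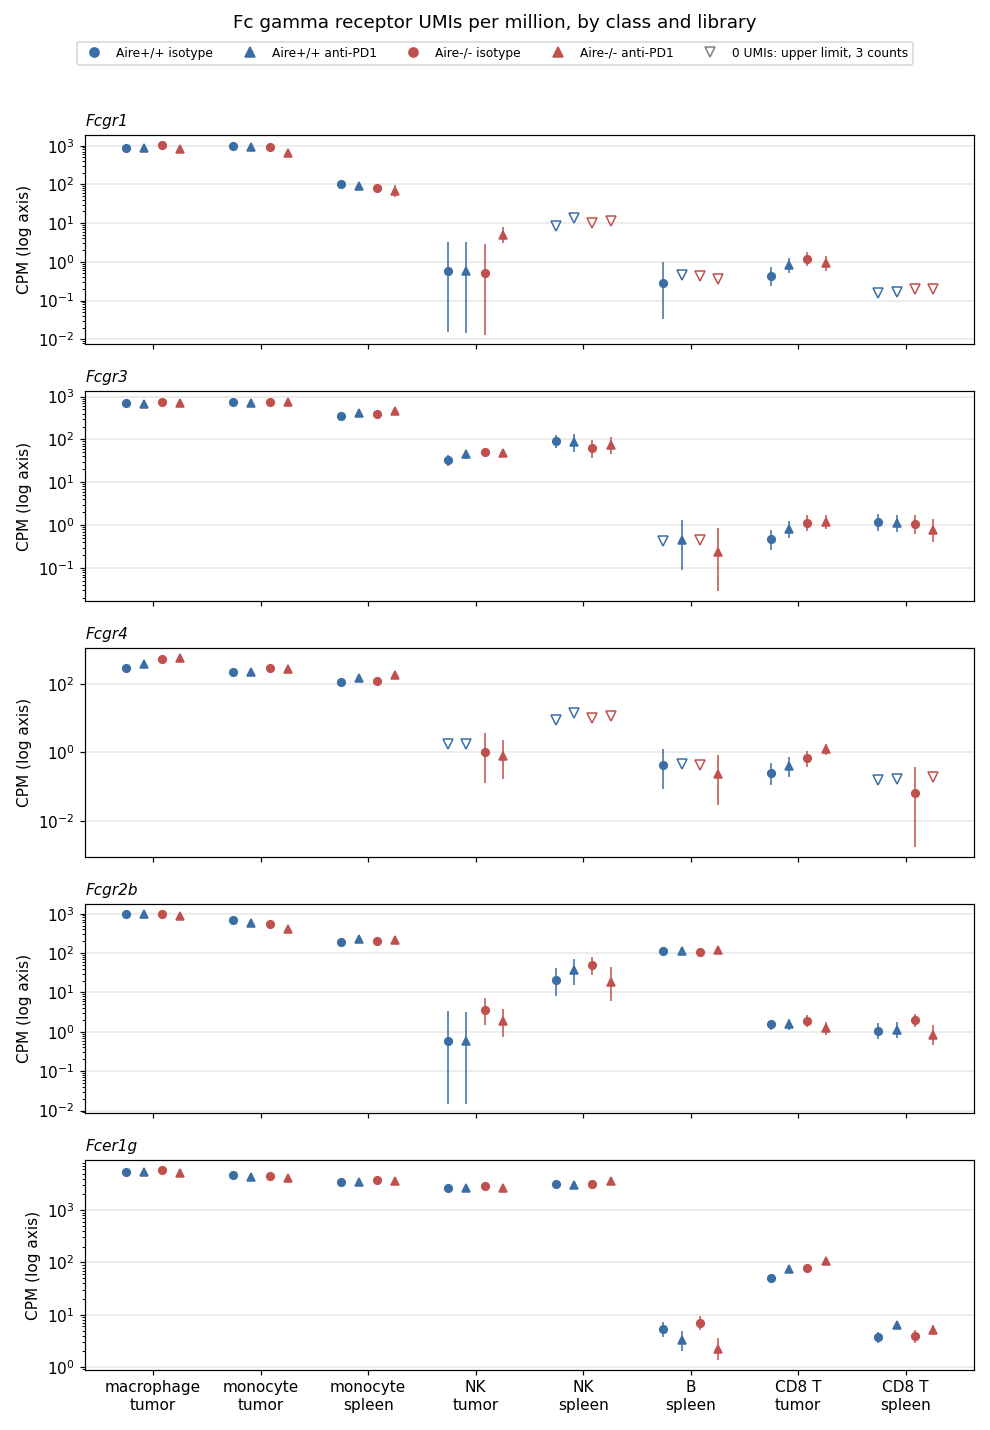
Levels of the 5 genes in CPM, on a log axis, with 1 point per library and 95% exact Poisson intervals as bars. Open triangles stand for sums of 0 UMIs at the upper limit of 3 counts. Tumor groups are macrophages, monocytes, NK cells and CD8 T cells, and splenic groups are monocytes, NK cells, B cells and CD8 T cells. CD8 T cells are those of the CD8+ sort and the other classes those of the CD45+ sort. Among the 5 classes, tumor macrophages and monocytes are highest for each of the 4 receptors. Fcer1g reaches 2621 CPM or more in every NK sum, and Fcgr2b is the receptor seen in splenic B cells at 104 to 119.8 CPM.

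Intervals given with counts, ratios and shares cover counting error alone, not variation between mice. Of the macrophages, 81.8%, 87.6%, 91.9% and 87.2% held at least 1 UMI of each of the 4 receptors, against 59.1%, 62.8%, 66.4% and 59.95% of tumor monocytes and 8.20%, 5.65%, 5.22% and 7.58% of splenic monocytes. Depth differed between these classes, with medians of 11438.5 to 14876.5 UMIs in macrophages, 10766 to 11973 in tumor monocytes and 6995.5 to 9017 in splenic monocytes. With every cell thinned to 2000 UMIs, Fcgr2b was found in 75.8%, 78.8%, 74.6% and 69.2% of macrophages and in 58.0%, 58.1%, 53.1% and 50.5% of tumor monocytes. Macrophages with Fcgr2b and without any activating receptor numbered 0, 2, 0 and 0.

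Tumor and splenic monocytes were compared first, to ask whether the family differs by tissue within a class. Each side had 4 libraries, joined into pairs by condition, and a p-value here measures the spread of the difference over conditions, since the pairs are not repeats of a condition. All 5 genes were higher in tumor, where 29.5% of 8829 genes were called higher and 26.6% lower. The widest difference was that of Fcgr1, whose tumor to spleen CPM ratios were 3.24, 3.33, 3.48 and 3.22 on the log2 scale. In the edgeR fit it was higher by 3.77 log2 (SE 0.10, Benjamini-Hochberg adjusted p 4.63e-15) and higher in 4 of 4 pairs.

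The inhibitory Fcgr2b followed, with pair ratios of 1.78, 1.37, 1.39 and 0.99 log2. Its edgeR difference was 1.86 log2 (SE 0.11, Benjamini-Hochberg adjusted p 7.1e-11), also higher in 4 of 4 pairs. Fcgr3, Fcgr4 and Fcer1g were higher by 1.32, 1.32 and 0.75 log2 in 4 of 4 pairs each, with Benjamini-Hochberg adjusted p from edgeR of 5.07e-10, 2.19e-08 and 9.17e-08. The sizes rest on the scaling, and the subsets of monocytes, described below, were mixed differently. With library sizes alone in place of the TMM factors of edgeR, the median of all genes moved from −0.03 to −0.48 log2 and the genes called higher and lower went from 2601 and 2345 to 1491 and 4676. The 5 genes were still called higher on that scale, by 3.32 log2 for Fcgr1, 1.41 for Fcgr2b, 0.87 for Fcgr3, 0.87 for Fcgr4 and 0.29 for Fcer1g.

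Classical cells made up 607, 416, 437 and 383 of the tumor monocytes and 98, 60, 57 and 28 of the splenic ones, and nonclassical cells 64, 32, 22 and 19 in tumor and 82, 61, 56 and 38 in spleen. Within classical cells Fcgr4 was at 224, 221, 275 and 272 CPM in tumor and at 18.8, 12.4, 19.4 and 42.2 CPM in spleen. Within nonclassical cells it was at 229, 259, 372 and 243 CPM in tumor and at 318, 388, 292 and 348 CPM in spleen. Fcgr4 was thus higher in tumor in 4 of 4 pairs of classical cells and lower in 3 of 4 pairs of nonclassical cells. Fcer1g was likewise higher in 4 of 4 classical pairs and lower in 3 of 4 nonclassical pairs, where tumor cells held 4443, 3829, 3901 and 3677 CPM. Fcgr1, Fcgr2b and Fcgr3 were higher in tumor in 4 of 4 pairs of both subsets. These differences within subsets were not tested.

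Genes that work with the receptors were taken from lists by function, counted in each comparison with TMM factors. In the same monocyte comparison, 5 of 14 genes of activating Fc receptor signaling were called higher and 5 lower, with a median of −0.03 log2, the value of all genes. Of 8 inhibitory signaling genes 2 were higher and 4 lower, from Dok2 at 4.58 to Cblb at −1.07 log2. The 3 receptors on the list of those that pair with Fcer1g and could be tested were all higher, with a median of 4.34 log2, among them Clec4d at 4.58 and Clec4e at 3.85. All 12 genes of the interferon-gamma response were higher, from Irf8 at 0.74 to Cxcl10 at 8.07 log2. Of 10 phagocytosis and oxidase genes 4 were higher and 2 lower, with a median of 0.15 log2, of 3 ITAM adaptors 0 were higher and 1 lower, and of 3 other Fc and immunoglobulin receptors 1 was higher and 2 lower.

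Within tumors, macrophages were set against monocytes of the same libraries, which shows how the genes differ between the more and the less differentiated myeloid class. In this comparison 61.5% of 9955 genes were called, 30.7% higher and 30.8% lower. Of the 5 genes, Fcgr2b and Fcgr4 were higher, Fcgr3 was lower, and Fcgr1 and Fcer1g passed in neither direction. Macrophage to monocyte CPM ratios of Fcgr2b were 0.53, 0.76, 0.84 and 1.02 log2, and edgeR gave 0.56 log2 (SE 0.08, Benjamini-Hochberg adjusted p 3.29e-05), higher in 4 of 4 pairs. For Fcgr4 the ratios were 0.33, 0.79, 0.88 and 1.03 log2 and edgeR gave 0.52 log2 (SE 0.10, Benjamini-Hochberg adjusted p 2.33e-04), again higher in 4 of 4 pairs. Both ratios were smallest in the Aire+/+ isotype library.

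The other 3 genes could not be placed without naming the scale. Without TMM factors the median of all genes moved from 0.03 to 0.26 log2 and the genes called higher and lower from 3054 and 3066 to 4677 and 1928. Fcgr3 was lower by edgeR at −0.28 log2 (Benjamini-Hochberg adjusted p 0.00188, lower in 4 of 4 pairs) but at −0.055 log2 without TMM factors (Benjamini-Hochberg adjusted p 0.453), and its CPM ratios ran from −0.09 to −0.0031 log2. Fcgr1 went from −0.15 to 0.073 log2 and was called on neither scale. With TMM factors and without the Aire-/- anti-PD1 library, however, it was called lower at −0.27 log2 (edgeR, Benjamini-Hochberg adjusted p 0.00426), and its CPM ratios had both signs at −0.16, −0.07, 0.20 and 0.35. Fcer1g went from 0.10 to 0.32 log2 and was called on the second scale alone (edgeR, Benjamini-Hochberg adjusted p 0.00123, higher in 4 of 4 pairs by CPM). Fcgr2b and Fcgr4 kept their calls, at 0.79 and 0.75 log2.

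Of the signaling genes in this comparison, 1 of 14 activating genes was called higher and 10 lower, with a median of −0.49 log2 against 0.03 for all genes, from Lat2 at 0.69 to Fgr at −1.09. Of 8 inhibitory genes 2 were higher and 3 lower, with a median of −0.08. Of 10 phagocytosis genes 0 were higher and 7 lower, and of 12 interferon-gamma response genes 0 were higher and 10 lower, with medians of −0.34 and −0.97 log2. Of 3 ITAM adaptors 1 was higher and 2 lower, and the same held for 3 receptors that pair with Fcer1g. Of 4 other Fc and immunoglobulin receptors 3 were higher, led by Fcrl5 at 6.37 log2. These list counts were made with TMM factors alone, and the shift of the median gene without them bears on each.

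The classical and nonclassical monocytes of the spleen were then compared, subsets that in the blood differ in their Fc receptors. Fcgr4 was at 318, 388, 292 and 348 CPM in nonclassical and at 18.8, 12.4, 19.4 and 42.2 CPM in classical cells. The difference was 4.13 log2 (edgeR, SE 0.19, Benjamini-Hochberg adjusted p 4.42e-12), higher in 4 of 4 pairs, where 15.7% of 4823 genes were called higher and 12.8% lower. No library of either subset overlapped the other. Fcer1g was at 3972, 4164, 4344 and 4155 CPM in nonclassical and 3220.3, 3018, 3332 and 3255 CPM in classical cells, higher by 0.46 log2 (edgeR, Benjamini-Hochberg adjusted p 2.82e-06) in 4 of 4 pairs.

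The other receptors were lower in nonclassical cells. Fcgr3 was at 259.7, 262, 329 and 313 CPM against 405, 496, 420.1 and 567 CPM, a difference of −0.60 log2 (edgeR, Benjamini-Hochberg adjusted p 3.75e-04) and lower in 4 of 4 pairs. Fcgr1 was at 80.1, 32.1, 66.3 and 52.9 CPM against 115, 121, 91.8 and 80.5 CPM, a difference of −0.71 log2 (edgeR, Benjamini-Hochberg adjusted p 0.0141), lower in 4 of 4 pairs. Fcgr2b was at 168, 152, 199 and 115 CPM against 209.6, 267, 212 and 295 CPM, at −0.47 log2 (edgeR, Benjamini-Hochberg adjusted p 0.0314) and lower in 4 of 4 pairs. The calls of Fcgr1 and Fcgr2b were not kept by DESeq2, nor without the Aire+/+ anti-PD1 library, where edgeR gave −0.42 log2 for Fcgr1 (Benjamini-Hochberg adjusted p 0.139) and −0.37 log2 for Fcgr2b (Benjamini-Hochberg adjusted p 0.170). For Fcgr2b the call was also lost without the Aire+/+ isotype library, at −0.59 log2 (edgeR, Benjamini-Hochberg adjusted p 0.0551), or the Aire-/- anti-PD1 library, at −0.30 log2 (edgeR, Benjamini-Hochberg adjusted p 0.125). Without TMM factors the counts of genes called higher and lower went from 757 and 617 to 629 and 869, and the 5 genes kept direction and call.

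All 6 tested genes of inhibitory signaling were higher in nonclassical cells, from Dok3 at 0.33 to Cblb at 1.82 log2, with a median of 0.83 against 0.00 for all genes. Of 14 activating signaling genes 3 were higher and 1 lower, from Fgr at 0.65 to Lat2 at −0.64 log2. Among 10 phagocytosis genes 1 was higher and 3 lower, and among 6 interferon-gamma response genes 1 was higher and 2 lower. In the tumor Fcgr4 was higher in nonclassical than in classical cells in 3 of 4 libraries, by the values given above, and lower in the Aire-/- anti-PD1 library. That library held only 19 nonclassical cells. In the Aire+/+ isotype library the values of the 2 subsets were close, on 127 nonclassical UMIs. These directions were not tested. Fcgr1 was at 261, 159, 141 and 203 CPM in nonclassical and at 1028, 956, 938 and 647 CPM in classical cells.

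NK cells were compared between tumor and spleen for the 3 genes with enough UMIs to test. Of 7354 genes 40.2% were called, 22.0% higher and 18.2% lower in tumor, and of the 3 genes 1 was called. Fcgr2b, at 1, 1, 7 and 7 UMIs in tumor and 7, 8, 15 and 5 UMIs in spleen, had CPM ratios of −5.09, −5.95, −3.76 and −3.36 log2. It was lower in tumor by edgeR at −3.67 log2 (SE 0.41, Benjamini-Hochberg adjusted p 2.68e-06) in 4 of 4 pairs. All 4 splenic values lay above all 4 tumor values.

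Splenic NK cells with an Fcgr2b UMI made up 6.98%, 14.3%, 15.3% and 7.14% of cells at a median of 3727, 3988, 4358 and 4299.5 UMIs per cell. In CD8 T cells of the same libraries, set beside them for comparison, the shares were 0%, 0%, 1.41% and 1.16%. In the tumor they were 0.926%, 0.775%, 3.75% and 2.15% of NK cells, although those were read more deeply at 8764 to 10174.5 UMIs. The B cell gene Cd79a was at 5.76, 0, 6.51 and 3.77 CPM in splenic NK cells, which the class definition limits, and at 3618, 3886, 3882 and 4037 CPM in splenic B cells. The part of RNA from other cells in the Fcgr2b UMIs of NK cells was not tested.

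Fcgr3 in NK cells rested on 55, 77, 101 and 185 UMIs in tumor and 32, 19, 19 and 20 UMIs in spleen, and its CPM ratios were −1.50, −0.93, −0.25 and −0.63 log2. The edgeR difference of −0.47 log2 was not called (Benjamini-Hochberg adjusted p 0.0963), although it was lower in 4 of 4 pairs. It was called without the Aire-/- isotype library at −0.65 log2 (edgeR, Benjamini-Hochberg adjusted p 0.0356) and without TMM factors at −0.84 log2 (edgeR, Benjamini-Hochberg adjusted p 0.00418). Fcer1g had CPM ratios of −0.24, −0.23, −0.09 and −0.45 log2, while edgeR with TMM factors gave 0.12 log2 (Benjamini-Hochberg adjusted p 0.21) and without them −0.26 log2 (Benjamini-Hochberg adjusted p 0.00645). Without TMM factors the median of all genes moved from −0.01 to −0.39 log2 and the genes called higher and lower from 1618 and 1336 to 907 and 2697. Fcer1g thus lay above the median gene on both scales, and its direction depends on the scale. Fcgr1 and Fcgr4 had too few UMIs to be tested.

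Partner genes of Fcer1g were lower in tumor NK cells. The 3 tested receptors that pair with it, Ncr1 at −1.67 log2 and Klrb1a at −1.25 log2 among them, were all called lower. So were the 3 tested ITAM adaptors, among them Cd247 at −1.20 and Tyrobp at −0.58 log2, and 5 of 11 activating signaling genes with 0 higher, from Vav3 at 0.95 to Syk at −2.02 log2. Inhibitory signaling had 1 of 6 genes higher and 1 lower, phagocytosis 4 of 8 higher and 1 lower, and the interferon-gamma response 5 of 10 higher and 2 lower. The medians of the 6 lists were −1.53, −0.89, −0.33, 0.11, 0.23 and 1.12 log2 in this order. Ncr1 and Klrb1c, both on the list of receptors that pair with Fcer1g, are also markers that defined the NK class. The class required a fixed minimum of marker UMIs per cell, which favors a higher CPM of its markers in the less deeply read splenic cells. The difference of these markers thus follows in part from the definition, and the size of that part was not tested.

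In splenic B cells Fcgr2b rested on 806, 764, 712 and 1006 UMIs and was found in 40.8%, 37.7%, 38.6% and 40.6% of cells at medians of 4180 to 4469 UMIs. The shares of CD8 T cells of the same libraries with an Fcgr2b UMI, given above, were 1.41% or less. Fcgr1, Fcgr3 and Fcgr4 each gave 0 to 3 UMIs per library in all B cells together. Fcer1g, at 5.35, 3.26, 7.04 and 2.26 CPM, lay above the monocyte gene Lyz2 in the same B cells of each library, which was at 3.24, 1.48, 3.96 and 1.91 CPM against 19336, 21238, 20432 and 21634 CPM in splenic monocytes. In the Aire+/+ isotype library 18 of its 38 UMIs in B cells lay in 1 cell.

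CD8 T cells of the CD8+ sort were compared between tumor and spleen, where 77.3% of 11324 genes were called, 37.6% of all genes higher and 39.7% lower. Of the 3 genes tested, Fcer1g was higher, with CPM ratios of 3.80, 3.54, 4.35 and 4.38 log2. By edgeR it was higher by 3.91 log2 (SE 0.15, Benjamini-Hochberg adjusted p 3.4e-07) in 4 of 4 pairs. Fcgr2b at 0.26 log2 (edgeR, Benjamini-Hochberg adjusted p 0.284) and Fcgr3 at −0.35 log2 (edgeR, Benjamini-Hochberg adjusted p 0.368) were not called. Fcgr1 and Fcgr4 did not pass the filter on low counts. Fcgr1 had 14, 21, 25 and 21 UMIs in tumor and 0 in each splenic library, and Fcgr4 had 8, 10, 14 and 28 UMIs in tumor and 0, 0, 1 and 0 in spleen. DESeq2, edgeR without the filter and, for Fcgr1, edgeR without the Aire+/+ isotype library did test and call them, but against 0 or 1 UMI the tumor side alone sets the outcome, so no p is given. Both genes stayed at or below 1.25 CPM in these tumor T cells, under C1qa in each library. Without TMM factors the median of all genes moved from −0.03 to 0.06 log2, the genes called higher and lower went from 4263 and 4491 to 4664 and 3984, and Fcer1g stayed at 3.99 log2.

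The cells with an Fcer1g UMI made up 9.10%, 12.4%, 15.7% and 15.3% of tumor CD8 T cells, at medians of 8843 to 10994 UMIs, and 0.873%, 0.906%, 0.622% and 1.17% of splenic ones, at 5812 to 6392 UMIs. Thinned to 2000 UMIs, the shares were 4.005%, 5.51%, 7.61% and 7.16% in tumor and 0.327%, 0.547%, 0.491% and 0.528% in spleen. The tumor shares lay above the splenic shares in 4 of 4 conditions before and after thinning. The macrophage gene C1qa was at 2.31, 4.40, 5.19 and 6.78 CPM in the tumor CD8 T cells, against 3485, 3872, 3292 and 2671 CPM in macrophages, and the macrophage list summed to 8.81, 16.2, 20.5 and 26.1 CPM. The part of RNA from other cells in the Fcer1g of these T cells was not tested.

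Most of the Fcer1g UMIs lay in few of these T cells. Cells with 5 or more Fcer1g UMIs numbered 82, 90, 90 and 105, or 3.32%, 4.27%, 5.11% and 4.91%, and held 87.6%, 86.3%, 82.9% and 85.4% of the UMIs of the gene in tumor CD8 T cells. Their Fcer1g level was 916, 930.3, 906 and 1076 CPM. In the other tumor CD8 T cells Fcer1g was at 6.67, 11.1, 14.6 and 17.3 CPM and C1qa at 2.37, 4.51, 4.92 and 6.98 CPM. Both genes followed the same order of libraries there, but the split is by Fcer1g itself, so no conclusion is drawn from that order. In the spleen 6, 9, 6 and 5 CD8 T cells passed the limit of 5 Fcer1g UMIs. The tumor cells past that limit held Cd3e at 1336, 1464, 1521 and 1491 CPM, near the level of the other CD8 T cells, and Ncr1 at 0, 0, 0 and 3.1 CPM. Genes of other lineages differed in both directions between them and the rest. C1qa was at 1.27, 2.82, 8.57 and 4.65 CPM in them, below the values of the rest in 3 of 4 libraries, and Cd79a was at 0 in them. The macrophage and monocyte genes Csf1r and Lyz2 were above the rest in 3 of 4 libraries each, Csf1r at 0.636, 0.563, 1.32 and 0 CPM against 0.0657, 0.211, 0.103 and 0.195 CPM, and Lyz2 at 5.73, 1.69, 6.59 and 5.16 CPM against 1.74, 3.21, 2.98 and 4.49 CPM. Tyrobp was at 29.3, 61.9, 109 and 40.8 CPM against 3.68, 3.84, 6.51 and 6.74 CPM, and the NK gene Klrb1c at 43.9, 20.3, 30.3 and 20.1 CPM against 5.98, 5.19, 3.28 and 2.83 CPM. Siglech, a gene of plasmacytoid dendritic cells, was at 8.91, 6.76, 37.6 and 0 CPM against 0, 0.0844, 0.667 and 0 CPM. NK marker UMIs were present at 3 or more in 54.9%, 56.7%, 42.2% and 58.1% of them, against 25.9%, 27.9%, 26.6% and 16.1% of the other CD8 T cells, and they were more deeply read, at medians of 15814 to 18476 UMIs against 8477 to 10818. No doublets were removed, and their part in these cells was not tested.

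In the same comparison of CD8 T cells all 7 tested inhibitory signaling genes were higher in tumor, from Dok1 at 0.38 to Inppl1 at 2.27 log2, and 5 of 11 activating genes were higher and 3 lower. Of 5 ITAM adaptors 2 were higher and 2 lower, with Tyrobp at 1.08 and Cd79b at −3.08 log2, and both tested receptors that pair with Fcer1g were higher. Of 9 phagocytosis genes 5 were higher and 1 lower, and of 11 interferon-gamma response genes 8 were higher and 1 lower. List medians were 0.80, 0.30, 0.11, 1.29, 0.43 and 0.51 log2, in that order, against −0.03 for all genes.

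Genotypes were compared within each tissue, class and treatment, to ask whether the receptors differ where central tolerance is impaired. Within a treatment there is 1 library on each side, so each ratio is given with its exact 95% interval for counting error and no p. A fit of genotype with treatment as a block, which would leave 1 residual degree of freedom, was not run. Of the 5 genes in tumor macrophages, 1 was at least 1.5-fold higher in Aire-/- under isotype, where 4.08% of 8674 genes were that much higher and 2.84% lower. This was Fcgr4, at 282 CPM in Aire+/+ and 512 CPM in Aire-/-, a ratio of 0.86 log2 (0.80 to 0.92). Under anti-PD1 none of the 5 reached 1.5-fold, where 5.87% of 7501 genes were that much higher and 10.9% lower, and Fcgr4 went from 385 to 552 CPM, or 0.52 log2 (0.42 to 0.62). It was the largest of the 5 ratios under both treatments, and the medians of all genes were −0.03 and −0.09 log2.

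The remaining ratios in macrophages were smaller. Fcgr1 was higher in Aire-/- under isotype, at 0.27 log2 (0.23 to 0.31), and lower under anti-PD1, at −0.12 log2 (−0.20 to −0.04). Fcgr3 was at 0.14 (0.10 to 0.19) and 0.12 log2 (0.04 to 0.20), and Fcgr2b at −0.02 (−0.06 to 0.02) and −0.21 log2 (−0.29 to −0.14). Fcer1g was at 0.10 (0.08 to 0.12) and −0.08 log2 (−0.12 to −0.05), so that of the 5 genes Fcgr3 and Fcgr4 were higher in Aire-/- under both treatments, Fcgr3 with the exception of a stricter macrophage class, which gave −0.070 log2 under anti-PD1.

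The share of macrophages with an Fcgr4 UMI was 85.2%, 92.3%, 96.6% and 93.6%, and after thinning to 2000 UMIs it was 38.7%, 49.0%, 57.8% and 62.2%. In CD8 T cells of the tumor CD8+ sort, which should lack the gene, 0.324%, 0.427%, 0.795% and 1.31% of cells held an Fcgr4 UMI. Markers of monocytes moved with Fcgr4 in macrophages: 5 of 5 classical monocyte genes were found and summed to 1494, 1935, 2402 and 2512 CPM, with Ly6c2 the most abundant at 1032, 1583, 1885 and 1966 CPM. The part of these cells in the result was not tested. In macrophages with fewer than 100 UMIs of the macrophage list Fcgr4 was at 287, 382, 454 and 521 CPM. In those with 100 or more it was at 281, 386, 533 and 578 CPM.

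Of the interferon-gamma response genes in macrophages, 11 of 12 were at least 1.5-fold higher in Aire-/- under isotype and 9 of 12 under anti-PD1, with medians of 0.90 and 0.92 log2, from Irf8 at 0.37 to Cxcl9 at 1.75 under isotype. Of 14 activating signaling genes 0 and 1 were 1.5-fold higher, with medians of 0.16 and −0.02 log2, and of 8 inhibitory signaling genes 1 and 0. Fcgr4 thus lay near the median of the interferon-gamma response list under isotype and below it under anti-PD1, and Fcgr1 lay below it under both.

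In tumor monocytes none of the 5 genes reached a 1.5-fold genotype ratio in either treatment, where 3.13% and 3.57% of genes were that much higher and 3.87% and 4.06% lower. Fcgr4 was again higher in Aire-/-, at 0.31 log2 (0.21 to 0.41) under isotype and 0.29 log2 (0.17 to 0.40) under anti-PD1. The inhibitory Fcgr2b was lower, at −0.33 (−0.40 to −0.26) and −0.47 log2 (−0.56 to −0.39). Fcgr1 was at −0.09 log2 under isotype and at −0.54 log2 (−0.61 to −0.48) under anti-PD1, from 918 to 629.5 CPM, the largest ratio of the 5 genes there. Fcgr3 was at 0.06 log2 under both treatments with intervals that held 0, and Fcer1g at −0.09 and −0.06 log2. In the same monocytes 7 of 12 interferon-gamma response genes were 1.5-fold higher under isotype and 5 of 12 under anti-PD1, with medians of 0.64 and 0.55 log2.

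**Figure D2:**
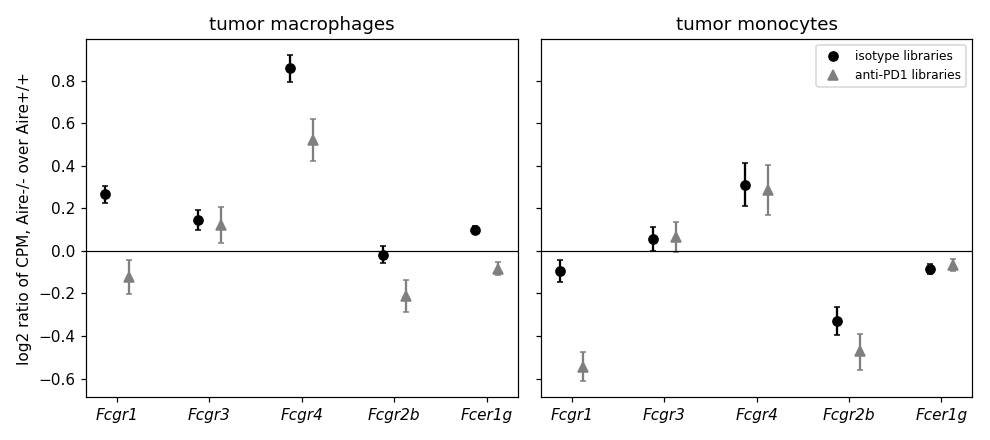
Ratio of Aire-/- to Aire+/+ on the log2 scale for each gene in tumor macrophages and tumor monocytes, by treatment, with exact 95% intervals for counting error as bars. Fcgr4 lies at 0.86 under isotype and 0.52 under anti-PD1 in macrophages and at 0.31 and 0.29 in monocytes, and Fcgr2b in monocytes lies at −0.33 and −0.47.

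In splenic monocytes the ratios of the 4 receptors had intervals that held 0 under both treatments, and Fcer1g was at 0.10 and 0.11 log2. None of the 5 passed 1.5-fold, where 1.82% and 3.63% of genes were that much higher and 2.09% and 2.93% lower. Tumor NK cells had Fcgr3 at 0.67 log2 (0.18 to 1.17) under isotype, from 55 and 101 UMIs, and at 0.11 log2 (−0.28 to 0.51) under anti-PD1. Of the 2 genes with at least 100 UMIs there, Fcgr3 alone passed 1.5-fold, under isotype alone, where 6.42% of 4083 genes were that much higher and 5.83% lower, and under anti-PD1 these shares were 3.34% and 2.31%. Fcer1g in CD8 T cells of the tumor CD8+ sort was higher in Aire-/- at 0.62 log2 (0.52 to 0.72) under isotype, and at 0.53 log2 (0.45 to 0.62) under anti-PD1. The first of these passed 1.5-fold, where 1.62% of 9913 genes were that much higher and 1.97% lower, and the second did not, where 1.91% were higher and 1.57% lower. In the same cells Fcgr1, Fcgr3 and Fcgr4 were at 1.44, 1.28 and 1.41 log2 under isotype, from 8 to 25 UMIs a library, with intervals that left out 0. Under anti-PD1 Fcgr4 was at 1.67 log2 (0.58 to 2.88), and the intervals of Fcgr1 and Fcgr3 held 0. C1qa, given above, was also higher in Aire-/- under both treatments. The part of RNA from other cells in these ratios was not tested. CD8 T cells of the tumor CD45+ sort gave 0.77 log2 (0.38 to 1.17) and 1.33 log2 (1.02 to 1.65) for Fcer1g. Both were past 1.5-fold, where 4.64% and 4.67% of genes were that much higher and 0.894% and 1.26% lower. The value of 0.77 did not hold when the class was defined more loosely or more strictly, which gave −0.0094 and −1.23 log2. In these CD8 T cells most of the Fcer1g UMIs lay in few cells. Cells with 5 or more Fcer1g UMIs numbered 3 in Aire+/+ and 12 in Aire-/- under isotype, and 6 and 35 under anti-PD1, and held 77.8% and 89.9%, and 52.6% and 84.9%, of the UMIs of the gene. The other cells of Aire+/+ and Aire-/- held 16 and 23 Fcer1g UMIs under isotype, at 13.2 and 10.8 CPM. Under anti-PD1 they held 45 and 130 UMIs, at 23.3 and 19.6 CPM. Because the cells were split by Fcer1g itself, these values cannot show how the gene differs by genotype in the other cells. The Aire-/- cells with 5 or more Fcer1g UMIs held Tyrobp at 456 and 403 CPM and Lyz2 at 164 and 156 CPM. The other Aire-/- cells held them at 9.84 and 6.33 CPM and at 7.03 and 6.03 CPM. The Aire+/+ cells past that limit held Tyrobp at 0 and 222 CPM and Lyz2 at 0 and 37.0 CPM. In the other Aire+/+ cells Tyrobp was at 14.0 and 10.9 CPM and Lyz2 at 55.3 and 4.66 CPM. Whether the cells past the limit were T cells alone was not tested.

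Treatment was compared within each genotype in the same way, to ask what PD-1 blockade does to the receptors. In Aire+/+ macrophages Fcgr4 was higher under anti-PD1, at 0.45 log2 (0.39 to 0.51), and the other 4 genes lay between −0.08 and 0.02 log2. None of the 5 reached 1.5-fold, where 1.33% of 8926 genes were that much higher and 0.997% lower. In Aire-/- macrophages Fcgr4 was at 0.11 log2 (0.01 to 0.21), and Fcgr1 was lower at −0.38 log2 (−0.46 to −0.30), where 2.64% of 6666 genes were 1.5-fold higher and 6.33% lower. Fcgr2b, Fcgr3 and Fcer1g were at −0.17, −0.11 and −0.18 log2.

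In tumor monocytes Fcgr1 was lower under anti-PD1 in Aire-/-, at −0.53 log2 (−0.60 to −0.46), and at −0.08 log2 in Aire+/+. Fcgr2b was lower in both, at −0.21 log2 (−0.27 to −0.14) in Aire+/+ and −0.35 log2 (−0.43 to −0.26) in Aire-/-. Fcgr3 was at −0.08 in each genotype, Fcgr4 at −0.02 and −0.04, and Fcer1g at −0.13 and −0.11 log2. None of these passed 1.5-fold, where 1.40% of genes in Aire+/+ were that much higher and 1.40% lower, and 2.04% and 1.56% in Aire-/-. Whether the response of Fcgr1 differs between the genotypes was not tested.

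In tumor NK cells Fcgr3 had treatment ratios of 0.47 log2 (−0.05 to 0.996) in Aire+/+ and −0.09 log2 (−0.45 to 0.27) in Aire-/-, and Fcer1g was at −0.02 and −0.12 log2. Neither gene passed 1.5-fold, where 3.61% and 2.91% of genes were that much higher and 2.33% and 1.51% lower. Fcer1g in CD8 T cells of the CD45+ tumor sort was at −0.28 log2 (−0.74 to 0.18) in Aire+/+ and 0.27 log2 (0.06 to 0.49) in Aire-/-, also short of 1.5-fold, where 5.10% and 3.89% of genes were that much higher and 1.55% and 1.25% lower. The interval in Aire+/+ held 0, and in Aire-/- the sign changed when the deepest cells were left out.

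In spleen, Fcgr4 of monocytes was higher under anti-PD1 at 0.36 log2 (0.04 to 0.69) in Aire+/+ and 0.65 log2 (0.23 to 1.07) in Aire-/-. Of the 5 genes 0 in Aire+/+ and 1 in Aire-/-, this 1.57-fold value of Fcgr4, passed 1.5-fold, where 1.83% and 2.90% of genes were that much higher and 1.39% and 1.82% lower. Nonclassical cells, in which Fcgr4 was higher, made up 82 of 183 and 61 of 124 splenic monocytes in Aire+/+, and 56 of 115 and 38 of 66 in Aire-/-, under isotype and anti-PD1, and their part in the result was not tested. Fcer1g of splenic CD8 T cells in the CD8+ sort was at 0.81 log2 (0.37 to 1.26) in Aire+/+, from 69 and 116 UMIs, past 1.5-fold, and at 0.43 log2 (−0.07 to 0.94) in Aire-/-. In Aire+/+ 43 and 90 of these UMIs, or 62.3% and 77.6%, lay in 6 and 9 cells with 5 or more Fcer1g UMIs. The other cells held 26 UMIs under each treatment, but the split is by Fcer1g itself, so no conclusion is drawn from them. In this comparison 0.820% and 0.689% of genes were that much higher and 0.514% and 1.01% lower. Splenic B cells had Fcgr2b at −0.01 log2 in Aire+/+ and 0.20 log2 (0.06 to 0.34) in Aire-/-. Fcer1g of CD8 T cells in the tumor CD8+ sort was higher under anti-PD1 at 0.55 log2 (0.45 to 0.65) in Aire+/+ and 0.46 log2 (0.37 to 0.55) in Aire-/-. Neither passed 1.5-fold, where 1.44% and 1.39% of genes were that much higher and 1.18% and 0.590% lower. In Aire-/- cells with NK markers, 483 under isotype and 388 under anti-PD1, Fcer1g was at 106 and 240.0 CPM. Aire-/- cells without them were at 64.0 and 63.0 CPM. Of the Fcer1g UMIs of the Aire-/- cells with NK markers, 93.3% lay in 49 cells under isotype and 85.0% in 39 cells under anti-PD1. The part of these few cells in the ratio was not tested. A stricter class that also limits NK markers gave a treatment ratio of −0.095 log2 in Aire-/-. In Aire+/+ cells with NK markers held 911 Fcer1g UMIs in 663 cells under isotype and 1183 in 613 cells under anti-PD1. Aire+/+ cells without them held 731 UMIs under each treatment, of 2.06e+07 and then 1.58e+07 UMIs of all genes. The rise in Aire+/+ was thus not confined to cells with NK markers.

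The balance of activating to inhibitory receptors was taken as the UMIs of Fcgr1, Fcgr3 and Fcgr4 over those of Fcgr2b. In tumor macrophages it was 1.89 (1.86 to 1.93), 1.94 (1.89 to 1.98), 2.41 (2.35 to 2.48) and 2.42 (2.29 to 2.57). In tumor monocytes it was 2.87, 3.15, 3.66 and 3.88, and in splenic monocytes 2.93, 2.88, 2.90 and 3.32. In both tumor classes each Aire-/- value lay above each Aire+/+ value, by 1.28-fold and 1.25-fold in macrophages and 1.27-fold and 1.23-fold in monocytes. In splenic monocytes the genotype folds were 0.990 and 1.15. In tumor NK cells the ratios under isotype were 56 (9.65 to 2251) in Aire+/+ and 14.9 (6.96 to 37.9) in Aire-/-. Under anti-PD1 they were 78 (13.6 to 3120) and 29.6 (14.1 to 74.5). The folds of 0.265 and 0.379 lay below 1, but the intervals overlapped, and they rest on 1, 1, 7 and 7 Fcgr2b UMIs. Splenic NK cells varied from 1.27 to 4.57 on few UMIs, and splenic B cells lay at 0 to 0.0062.

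**Figure D3:**
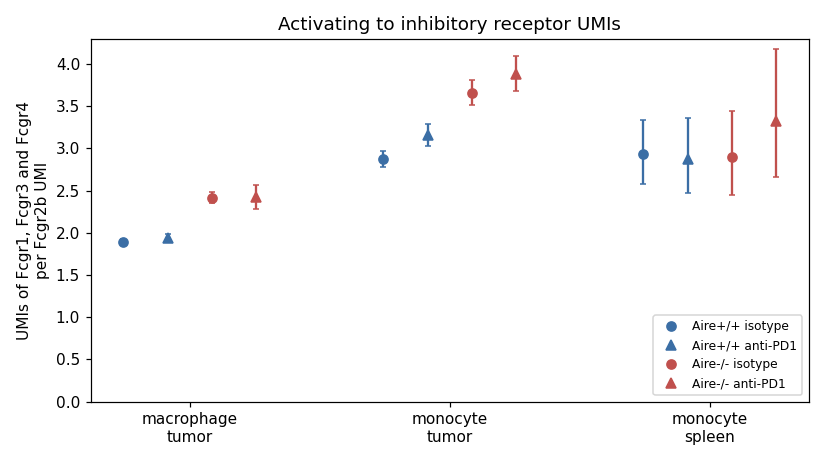
Ratio of the summed UMIs of Fcgr1, Fcgr3 and Fcgr4 to those of Fcgr2b in each library for tumor macrophages, tumor monocytes and splenic monocytes, with exact 95% intervals as bars. Tumor macrophages run from 1.89 to 2.42 and tumor monocytes from 2.87 to 3.88, with the Aire-/- libraries above the Aire+/+ libraries in both classes.

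Across 40 sums of cells by class and library, the genes closest to each member by Pearson correlation of log CPM were found among 12309 genes. They were Msr1 for Fcgr1 (r 0.997), Cfp for Fcgr2b (0.969), Gng12 for Fcgr3 (0.965), Tbxas1 for Fcgr4 (0.995) and S100a1 for Fcer1g (0.972). Among the members, Fcgr1 and Fcgr4 were the most alike (0.975) and Fcer1g and Fcgr2b the least (0.576). The sums share libraries and cell classes, so these values describe the pattern over classes.

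Of the members 4 lie close together in the GRCm38 genome. Fcgr2b (chr1:170960558-170976071), Fcgr4 (chr1:171018926-171029761), Fcgr3 (chr1:171051169-171065915) and Fcer1g (chr1:171229572-171234349) span 274 kb of chromosome 1, where Fcgr4 alone is on the forward strand. Fcgr1 lies on chromosome 3 (chr3:96282909-96293969), on the reverse strand. Transcripts of Fcgr2b and Fcgr3 share 233 stretches of 31 bases, of 3632 and 1627, and 76 of them fall in the last 500 bases of Fcgr2b transcripts and 5 in those of Fcgr3. The labels name a 3′ kit, while the paper's methods also describe 5′ RNA libraries of sorted cells, made beside T cell receptor libraries. Which end of transcripts was read could not be checked from the counts, and how reads were divided between these genes is uncertain. No such stretch was shared by any other pair of members.

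All 5 members had a promoter in the RefSeq tables for GRCm38.p6, and the 300 bases from 250 before to 50 after each start were searched on both strands for short motifs. The ISRE letters, GAAA and GAAA with any 2 bases between them, which interferon regulatory factors can bind, were found in Fcgr4 and in 3.44% of 32851 promoters. The PU.1 core GAGGAA was found in Fcgr1, Fcgr3 and Fcgr4 and in 28.3% of promoters, and its longer form GAGGAAGT, which overlaps the core, in Fcgr4 and in 3.20%. The CRE letters TGACGTCA, in 1.79% of promoters, were in none of the members, and Fcgr2b and Fcer1g held none of these motifs. The motifs given here are not all of the 5 that were searched, so the matches listed are incomplete. A match describes letters in the window and no more. The 250 bases before the start of Fcgr4, on the forward strand (chr1:171018676-171018925) and of Fcgr2b, on the reverse strand (chr1:170976072-170976321), are shown because these genes went apart by genotype in tumor monocytes. Capitals mark the ISRE and PU.1 core letters, and the PU.1 core reads TTCCTC here since it is on the opposite strand.
Fcgr4: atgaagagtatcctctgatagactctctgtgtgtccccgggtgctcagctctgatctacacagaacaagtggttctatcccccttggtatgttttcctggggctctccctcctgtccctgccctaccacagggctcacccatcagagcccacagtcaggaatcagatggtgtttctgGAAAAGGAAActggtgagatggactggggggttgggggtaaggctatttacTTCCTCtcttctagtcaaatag
Fcgr2b: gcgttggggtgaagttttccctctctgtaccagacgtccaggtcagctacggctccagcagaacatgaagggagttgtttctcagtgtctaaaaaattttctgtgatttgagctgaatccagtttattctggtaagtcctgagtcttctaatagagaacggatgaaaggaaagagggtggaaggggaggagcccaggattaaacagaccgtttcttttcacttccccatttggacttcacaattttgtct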

How the data were processed

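The authors deposited UMI counts per gene and cell barcode for called cells only, made with Cell Ranger against GRCm38, and the labels name a 3′ kit. Barcodes with fewer than 200 genes or over 20% mitochondrial UMIs were removed and no doublets were. UMIs of each class and library were summed. CPM are per 1000000 UMIs of those cells. Tumor against spleen and class against class were fitted on all genes with edgeR 4.0.16 (quasi-likelihood, TMM, condition as block, R 4.3.3). Alternatives to these fits were DESeq2 1.42.0, no low-count filter, no block, other gates and leaving out each condition. Thinning to 2000 UMIs was applied to ratios and shares, not to these fits. Ratios and intervals used scipy 1.17.1 in Python 3.11.15: exact Poisson, conditional exact and Clopper-Pearson at 95%. Ratios of 1.5-fold counted genes with at least 100 UMIs in the pair. The genes named as most like a member were the 5 of highest correlation, of which the top is given; list genes named are the extremes of their list. The code was tested on simulated data. The members and lists were chosen with earlier results of these data known. Class thresholds were set from marker UMIs; the monocyte subset rule so that each splenic library kept 20 cells per subset. The splits by UMIs of the macrophage list, of NK markers and of Fcer1g, the 1.5-fold rule, the motifs and the scaling without TMM factors were chosen after the members' values were seen.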

Additional observations from a re-analysis of the deposited data

Results flagged for a closer look

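Some ratios pointed in opposite directions in groups compared in the same way, each with an interval that left out 0. None of these differences was tested, since every ratio rests on 1 library a side. In tumor macrophages, the Aire-/- to Aire+/+ ratio of Fcgr1 was 0.27 log2 under isotype and −0.12 under anti-PD1, and that of Fcer1g was 0.10 and −0.08. For Fcer1g in monocytes the genotype ratio was −0.09 log2 in tumor and 0.10 in spleen under isotype, and −0.06 in tumor and 0.11 in spleen under anti-PD1. The anti-PD1 to isotype ratio of Fcgr3 in Aire+/+ monocytes was −0.08 log2 in tumor and 0.22 in spleen. That of Fcer1g in Aire-/- NK cells was −0.12 log2 in tumor and 0.24 in spleen. That of Fcgr2b in Aire-/- CD8 T cells of the CD45+ sort was −1.32 log2 in tumor, from 16 and 20 UMIs, and 2.36 in spleen, from 2 and 12 UMIs that lay in 2 of 142 and 2 of 173 cells.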

How the results depend on the processing

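The alternatives for the fits were DESeq2, no filter on low counts, no block, each condition left out, and stricter and looser classes. Those for the ratios between libraries were stricter and looser classes, cells above the 95th percentile of UMIs left out, thinning to 2000 UMIs and the mean of single-cell CPM. Library sizes without TMM factors were added after seeing the data. The tumor to spleen differences of all 5 genes in monocytes, of Fcgr2b in NK cells and of Fcer1g in CD8 T cells, the macrophage to monocyte differences of Fcgr2b and Fcgr4, and the nonclassical to classical differences of Fcgr3, Fcgr4 and Fcer1g kept direction and call under the alternatives tried for them.

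Without TMM factors, the NK cell difference was −0.84 log2 for Fcgr3, now called, and −0.26 for Fcer1g, reversed. On that scale the macrophage to monocyte difference was 0.073 for Fcgr1, reversed, −0.055 for Fcgr3, no longer called, and 0.32 for Fcer1g, now called. Stricter classes called Fcgr3 in NK cells at −0.57 (edgeR, Benjamini-Hochberg adjusted p 0.0457; over its alternatives −0.84 to −0.22), and testing without a filter called Fcer1g there at 0.22. Stricter and looser classes called Fcgr1 lower in macrophages at −0.21 and −0.20. DESeq2 called 654 genes between monocyte subsets, not 1374, and lost the calls of Fcgr1 at −0.78 and Fcgr2b at −0.53. For Fcgr2b stricter and looser classes lost the call at −0.47 and −0.40.

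Leaving out a condition gave −0.65 to −0.22 log2 for Fcgr3 and 0.07 to 0.17 for Fcer1g in NK cells. It gave −0.27 to −0.063 for Fcgr1 in macrophages against monocytes, and −0.92 to −0.42 for Fcgr1 and −0.63 to −0.30 for Fcgr2b in nonclassical against classical monocytes.

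Of 36 genotype and 33 treatment ratios with intervals that left out 0, 19 and 14 had such intervals after thinning, which leaves fewer UMIs. Genotype ratios changed sign in 1 of 34 with looser classes, 2 of 31 with stricter classes and 1 of 30 with thinning. These were Fcer1g in CD8 T cells of the CD45+ tumor sort under isotype (−0.0094 looser, −1.23 stricter), Fcgr3 in macrophages under anti-PD1 (−0.070 stricter) and Fcgr1 in tumor monocytes under isotype (0.0055 thinned). Treatment ratios in Aire-/- changed sign for Fcer1g in CD8 T cells of the CD45+ tumor sort (−0.11 without the deepest cells, −0.13 by mean CPM, −0.42 thinned), and with stricter classes for Fcgr1 (−1.22 to 2.50) and Fcgr3 (−1.65 to 0.16) in those cells and Fcer1g in the CD8+ tumor sort (−0.095). Fcer1g in splenic B cells went from −1.64, on 48 and 19 UMIs, to 0.62 with looser classes. Over all 4 conditions the activating to inhibitory ratio of 2.03 in macrophages went to 2.06 with looser classes, 1.93 with stricter classes and 2.10 thinned, that of 3.26 in tumor monocytes to 3.04 and 3.48 with looser and stricter classes, and that of 2.96 in splenic monocytes to 3.30 with stricter classes and 3.21 thinned. The causes were not tested. Fits of genotype with treatment as a block, or the reverse, were not run.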

Other observations

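Tumor neutrophils, in 48, 29, 23 and 11 cells, held Fcgr3 at 771, 822, 1116 and 1100.1 CPM and Fcgr4 at 382, 315, 547 and 793 CPM. Their definition set no limit on macrophage or monocyte genes, so mixed cells may be among them. In the Aire-/- isotype library 46 of the 157 Fcgr3 UMIs lay in a single cell. Tumor dendritic cells, in 109, 83, 118 and 124 cells, held Fcer1g at 1179, 1302, 1320.5 and 1136 CPM. Plasmacytoid dendritic cells of the tumor CD8+ sort, in 109, 36, 28 and 11 cells, held Fcer1g at 1531, 1577, 1595 and 1419 CPM. Splenic mast cells or basophils, in 12, 10, 7 and 5 cells, held it at 2345, 2426, 2450 and 2123 CPM.

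Each condition is 1 library of pooled mice, so differences between genotypes or treatments cannot be told apart from differences between libraries. Classes rest on UMIs of marker genes, and the boundary between tumor macrophages and monocytes is gradual. Spleen was read less deeply than tumor. UMIs show RNA, not receptor protein on the cell surface. How reads were divided between Fcgr2b and Fcgr3 could not be checked.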
